A study of Homo sapiens with 4 samples.

Results

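Aminoacyl-tRNA synthetases attach each amino acid to its tRNA, and the genes for 36 of these enzymes were examined for N6-methyladenosine (m6A) in OE-19 cells. The members were given as a list of gene symbols, which does not hold every synthetase, and all 36 were found among the 20046 protein-coding genes of the GENCODE annotation. By the compartment in which the enzyme works, 18 were cytosolic, 16 were mitochondrial and 2 (GARS1 and KARS1, for glycine and lysine) served both compartments.

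OE-19 is an established cell line of adenocarcinoma of the esophagogastric junction (AEG). In meRIP-seq, an antibody captures RNA fragments that carry m6A, and stretches covered by many captured fragments are reported as peaks. The samples were 2 m6A immunoprecipitation (IP) samples and 2 input samples, all of OE-19 cells grown in the same medium with no further treatment named in the labels. Each IP sample had a peak list of its own, the input samples had none that was analysed here, and the labels do not say whether replicates 1 and 2 came from separate cultures. The lists thus show where peaks lie in 1 condition, and they compare no treatments.

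Protein synthesis needs a charged tRNA for every codon, and mitochondria, which translate a small set of mRNAs of their own, use a second set of synthetases encoded in the nucleus. Several cytosolic synthetases are held together in a multi-synthetase complex, and the family falls into class I and class II by the fold of the catalytic domain. m6A is placed on mRNA in the nucleus mainly in the sequence context DRACH, of which GGAC is a frequent core, and it is known to be dense in long exons and around stop codons and sparse near exon junctions.

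The lists held 24607 peaks in replicate 1 and 19318 in replicate 2, of which 20134 and 13113 had the summit, the point of highest pile-up, in an annotated exon. Synthetase genes held 32 of these exonic summits in replicate 1 and 24 in replicate 2. The strength of a peak is given as its fold enrichment, the pile-up at the summit as a ratio over the local background of the peak caller. Read numbers are not part of the lists, so library depth and the expression of each gene are unknown, and a gene with no called peak is not thereby shown to lack m6A. With 2 libraries in 1 group no test over samples could be made, and the values below are descriptions.

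An exonic peak was found in both lists for 15 of the 36 synthetase genes (41.7%). Over all protein-coding genes the share was 31.8%, and it was 38.0% for genes of the same exonic length as the members (20 bins over all isoforms). The 95% Wilson interval of the members' share ran from 27.1% to 57.8%, covers counting error only, and holds both of these values. In replicate 1, 22 members had an exonic peak, beside 40.3% of all protein-coding genes. In replicate 2, 16 members had one, beside 32.5%. A further 7 members had a peak in replicate 1 only, 1 had a peak in replicate 2 only, and 13 had none in either list. Over the 20046 protein-coding genes these counts were 1699, 143 and 11828.

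The mitochondrial enzymes made up most of the members with a peak in both lists. Among the 16 mitochondrial genes, 10 had one (62.5%, Wilson interval 38.6% to 81.5%): AARS2, CARS2, EARS2, FARS2, HARS2, LARS2, MARS2, PARS2, TARS2 and WARS2. Among the 18 cytosolic genes, 5 had one (27.8%, interval 12.5% to 50.9%): AARS1, CARS1, HARS1, SARS1 and YARS1. Neither of the 2 genes that serve both compartments had an exonic peak in either list. Protein-coding genes of the same exonic length as the mitochondrial members had a peak in both lists in 35.9% of cases, and those matched to the cytosolic members in 39.6%. The mitochondrial share thus lay above its background and the cytosolic share below it, while the 2 intervals overlapped and the difference between the classes was not tested. The cytosolic direction turned in other settings: in replicate 1 alone 10 of 18 cytosolic genes had a peak (55.6%, like length 49%), and with summits anywhere in the gene body 9 had one in both lists (50%, like length 45.7%). These 9 include MARS1 through a peak whose summit lay in an exon of DDIT3. The background in that setting was counted by the same rule. The cytosolic genes had the longer exonic length, with a median of 6118 nt against 4486 nt.

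**Figure D1:**
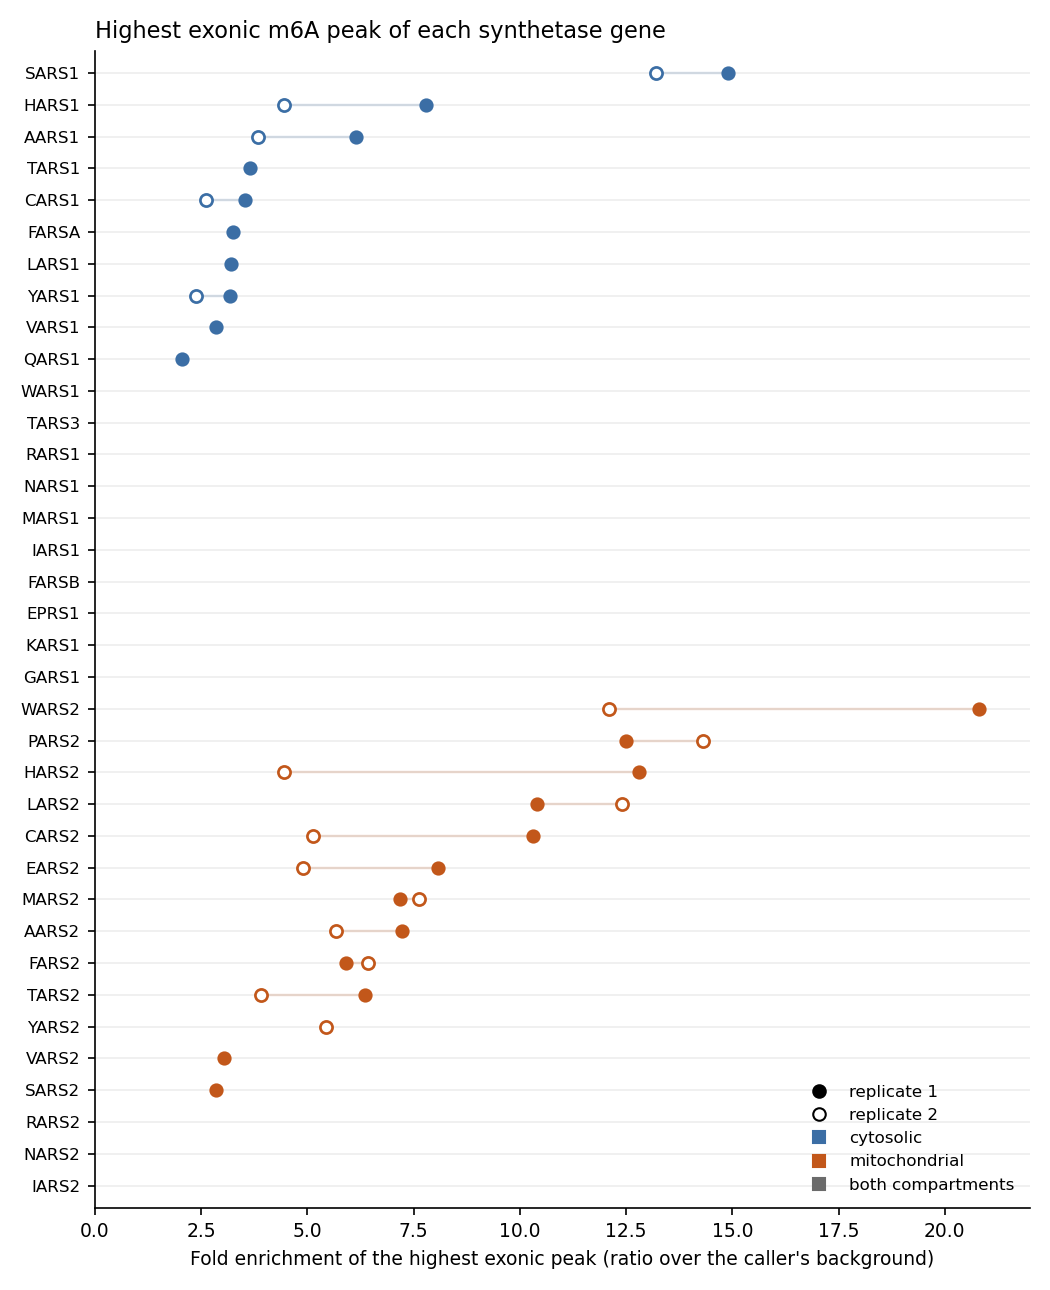
Fold enrichment of the highest exonic peak of each of the 36 genes, with filled points for replicate 1, open points for replicate 2 and a line joining the 2 where both lists had a peak. The joined values can be of different peaks, as in HARS1 (7.79 and 4.46), AARS2 (7.22 and 5.68) and YARS1 (3.18 and 2.38). The mitochondrial enzymes WARS2, PARS2, HARS2, LARS2 and CARS2 and the cytosolic SARS1 reach 10.3 or more in at least 1 list, and 13 rows are empty.

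Set side by side by amino acid, 14 enzymes had cytosolic and mitochondrial genes with a shared name stem. Both genes had a peak in both lists for 3 of them, alanine, cysteine and histidine. For 5, phenylalanine, leucine, methionine, threonine and tryptophan, the mitochondrial gene had one and no cytosolic gene did. The reverse held for 2, serine and tyrosine. For the other 4, isoleucine, asparagine, arginine and valine, neither gene did. Glutamate and proline are outside the 14, as EPRS1 is the cytosolic gene for both. EPRS1 had no exonic peak in either list, while the mitochondrial EARS2 and PARS2 each had one in both lists.

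The multi-synthetase complex holds 7 of the member enzymes, and none of their genes had an exonic peak in both lists. EPRS1, IARS1, KARS1, MARS1 and RARS1 had none in either list. LARS1 and QARS1, for leucine and glutamine, had a single peak in replicate 1 with a fold enrichment of 3.20 and 2.04. Genes of the same exonic length as these 7 had a peak in both lists in 39.2% of cases, and those of the same canonical transcript length in 35.6%. The Wilson interval of 0 of 7 reaches 35.4% and covers counting error only, and the difference was not tested. Of the 7, 5 had no exon over 400 nt in the canonical transcript. Over all protein-coding genes without such an exon, 4.84% had a peak in both lists. Of the 12 cytosolic genes outside the complex, 5 had a peak in both lists (41.7%, background by length 39.3%). By catalytic class the shares were closer, with 7 of 18 class I genes (38.9%, background by length 40.2%) and 8 of 17 class II genes (47.1%, background 35.9%), where EPRS1, which joins an enzyme of each class, was kept apart.

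**Figure D2:**
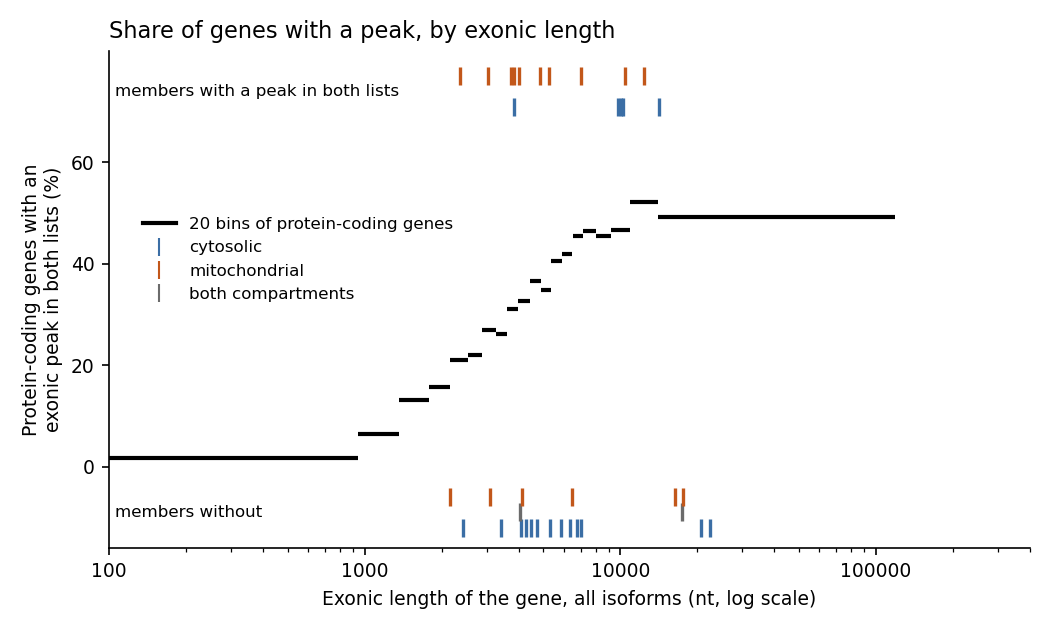
Share of protein-coding genes with an exonic peak in both lists (y axis, %) in 20 bins of exonic length (x axis, nt, log scale), each bar spanning 1 bin; the ticks above and below mark the exonic length of each member with and without such a peak. The share rises from 1.69% in the bin of the shortest genes to 52.1% in bin 19, and members with and without a peak span much the same lengths.

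The genes with a peak in both lists were first examined by the strength of their best peak. WARS2, for mitochondrial tryptophan, had the highest geometric mean of the family, with 20.8 fold enrichment in replicate 1, the highest there, and 12.1 in replicate 2, where PARS2, SARS1 and LARS2 were higher. The peak lay at chr1:119032847-119033289 in replicate 1 (hg38, as are all positions here), in the last of 6 exons, which holds 2144 nt. By this mean it stood at percentile 98.4 of the 6304 protein-coding genes with such a pair of peaks. SARS1, the cytosolic seryl enzyme, followed with 14.9 and 13.2 (percentile 96.4) at chr1:109214554-109215124. PARS2, for mitochondrial proline, had 12.5 and 14.3 (percentile 95.5) in a peak of 1426 bp at chr1:54757679-54759104. LARS2, for mitochondrial leucine, had 10.4 and 12.4 (percentile 89.9) at chr3:45547465-45548655, with its summit in the 3′ UTR. These 4 genes kept 10.4 or more in both lists, and no other member did.

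HARS2, for mitochondrial histidine, had 12.8 in replicate 1 and 4.46 in replicate 2 at chr5:140698552-140699121, the least equal pair of the family. MARS2, whose canonical transcript is a single exon of 3027 nt, had 7.18 and 7.62 in a peak of 1876 bp at chr2:197705433-197707308. CARS2 had 10.3 and 5.14 at chr13:110650480-110651059, and EARS2, for mitochondrial glutamate, had 8.08 and 4.90 at chr16:23524085-23524427. All 4 lay in the middle of the ranking, between percentiles 46.4 and 62.2.

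The remaining mitochondrial pairs were lower. AARS2 had 6.86 and 5.68, FARS2 5.91 and 6.43, and TARS2 6.35 and 3.92. The cytosolic genes other than SARS1 were lower still, with 6.15 and 3.83 in AARS1, 5.14 and 4.46 in HARS1, 3.54 and 2.62 in CARS1, and 2.59 and 2.38 in YARS1. CARS1 and YARS1 stood at percentiles 6.28 and 2.09 of all genes with a pair. The median of the best geometric mean was 6.29 over the 15 members and 6.53 over all such genes, with 4.79 in the 5 cytosolic and 7.34 in the 10 mitochondrial members.

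To show what lay under these peaks, the sequence around the GGAC nearest to the replicate 1 summit is given for the 8 highest-ranked members, read from the hg38 reference on the strand of the gene, 28 nt each, 5′ to 3′, with the GGAC in capitals. All 8 had a GGAC in the stretch common to both peaks. In SARS1, PARS2, LARS2 and CARS2 its A lay within 50 nt of the summit, at exactly 50 nt in SARS1, and the other 4 are shown although theirs lay farther off, a choice made after the distances were seen.
WARS2: aaaactgaagctGGACaaggaccattta
SARS1: attgtgatttgtGGACgttttcctttaa
PARS2: caccaaccggtgGGACttgatgggcaaa
LARS2: gaggagggggttGGACatcctgcccctc
HARS2: agaagaccctgaGGACtcctgggctagt
MARS2: tgcgagtctttgGGACtttgctgcagcc
CARS2: ctctctgggtctGGACaagtcgtgaacc
EARS2: atctaacctcctGGACtctggaaaggca

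These stretches lie at chr1:119033001-119033028 on the minus strand for WARS2 (CDS), chr1:109214793-109214820 on the plus strand for SARS1, and chr1:54758745-54758772 on the minus strand for PARS2 (CDS). Those of LARS2 and HARS2 lie on the plus strand in the 3′ UTR, at chr3:45547748-45547775 and chr5:140698705-140698732. That of MARS2 lies in the CDS at chr2:197706955-197706982 on the plus strand, that of CARS2 at chr13:110650766-110650793 on the minus strand, and that of EARS2 in the 3′ UTR at chr16:23524142-23524169 on the minus strand. The A of the GGAC stood at -17 nt from the replicate 1 summit in LARS2 (negative is upstream) and at 24 nt in PARS2. In LARS2, PARS2 and SARS1 the A was within 50 nt of the replicate 2 summit as well. In WARS2 it stood 143 nt and 83 nt downstream of the summits of replicates 1 and 2. The MARS2 stretch, which is 1352 bp long, held 11 copies of GGAC, that of PARS2 held 6, and those of SARS1 and EARS2 held 1 each. The copy in SARS1 is followed by a G, so it falls outside DRACH, in which the last base is A, C or U.

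Over all exonic summits of the members, GGAC on the strand of the gene was present, with all 4 bases within 50 nt, at 19 of 32 summits in replicate 1 (59.4%) and 12 of 24 in replicate 2 (50%). The shares for all protein-coding genes were 49.8% and 51.7%. The reverse complement GTCC, searched in the same windows, was present in 31.2% and 16.7% of member summits, beside 31.4% and 29.6% for all genes. The stretch common to both peaks held a GGAC in 17 of the 20 pairs of member peaks (85.0%), beside 83.9% of the 10829 pairs of all protein-coding genes. The members' motif shares were thus close to those of all genes, and a GGAC in a window is a match of letters and not a mapped m6A site.

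Next, the 2 lists were compared over the 20 pairs of overlapping exonic peaks, which lay in 15 member genes. The median log2 ratio of fold enrichment, replicate 1 over replicate 2, was 0.35 (SD 0.48, n = 20 pairs), and 16 of 20 pairs (80.0%) were higher in replicate 1. Over all genes the median was 0.44 and 80.6% were higher in replicate 1. The members therefore followed the offset between the lists that all genes show. The pairs of PARS2, LARS2, MARS2 and FARS2 were higher in replicate 2, with log2 ratios of -0.19, -0.26, -0.08 and -0.12. The HARS2 pair had the largest ratio, 1.52, at percentile 97.2 of all pairs, and its replicate 1 summit lay in an exon shared with ZMAT2, so the gene of that peak is uncertain. The distance between the summits of a pair had a median of 29 bp in the members and 26 bp over all genes, and it was largest, 446 bp, in the second pair of CARS2.

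**Figure D3:**
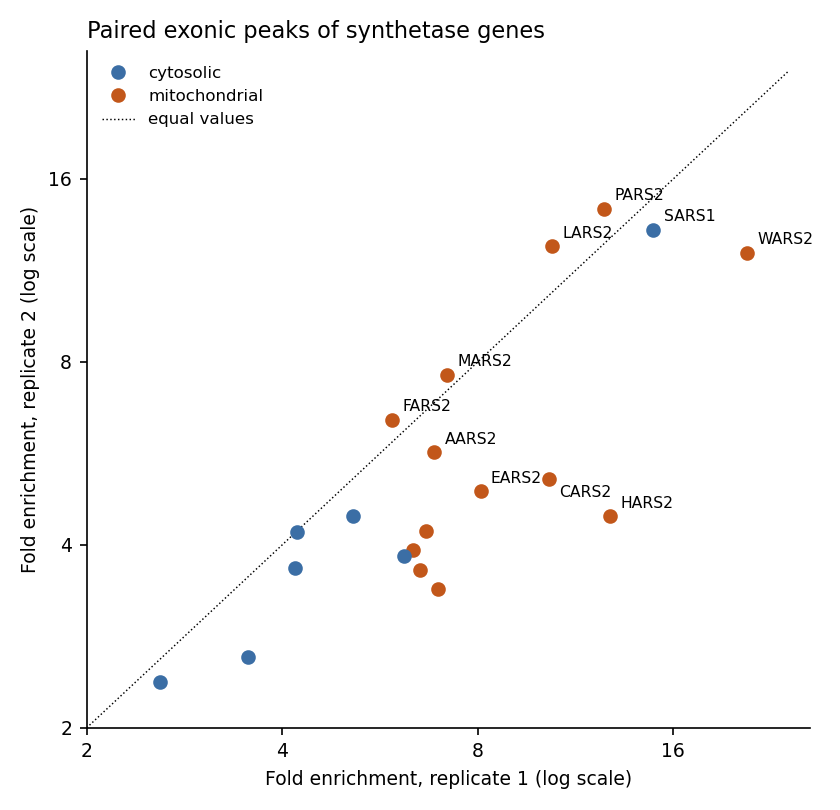
Fold enrichment in replicate 1 (x axis, log scale) and replicate 2 (y axis, log scale) of the 20 pairs of overlapping exonic peaks in synthetase genes, coloured by compartment, with a dotted line at equal values. Of the pairs, 16 lie below the line, HARS2 (12.8 and 4.46) lies farthest below it, and PARS2, LARS2, MARS2 and FARS2 lie above it.

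Of the 32 member summits in replicate 1, 21 belonged to peaks that overlapped a peak of replicate 2 (65.6%, against 60.6% for all protein-coding genes). In the other direction it was 21 of 24 (87.5%, against 95.9%). The 11 unshared peaks of replicate 1 had a median fold enrichment of 3.20 and a median width of 176 bp, and the 21 shared ones 6.65 and 488 bp. Over all protein-coding genes the contrast was alike, with 3.96 and 194 bp in unshared and 6.47 and 473 bp in shared peaks.

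The 7 genes with a peak in replicate 1 only were the cytosolic TARS1 (3.65), FARSA (3.25), LARS1 (3.20), VARS1 (2.85) and QARS1 (2.04) and the mitochondrial VARS2 (3.03) and SARS2 (2.84), where the values are fold enrichment. YARS2, for mitochondrial tyrosine, was the only gene with a peak in replicate 2 alone (5.43). The 7 replicate 1 values thus ran from 2.04 to 3.65, below the replicate 1 median of 6.03 over all member summits. The summit of SARS2 shared an exon with another gene and that of VARS2 with an RNA gene, so these 2 assignments are uncertain too. The members with no exonic peak were EPRS1, FARSB, IARS1, MARS1, NARS1, RARS1, TARS3 and WARS1 among the cytosolic enzymes, GARS1 and KARS1 among those of both compartments, and IARS2, NARS2 and RARS2 among the mitochondrial ones. TARS3 is a second cytosolic threonyl enzyme beside TARS1, and FARSA and FARSB are the subunits of the cytosolic phenylalanyl enzyme.

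Positions along the mRNA were then assigned on the transcript with the longest CDS, which placed 24 member summits of replicate 1 and 18 of replicate 2. A window of 200 nt on either side of the stop codon took 12 of the 24 (50%) and 8 of the 18 (44.4%), beside 24.4% and 27% of all placed summits. The CDS outside that window held 33.3% and 38.9% (all genes 49.2% and 48.1%), and the 3′ UTR beyond it 12.5% and 16.7% (17.6% and 19.2%). Only 1 member summit lay in a 5′ UTR, that of VARS1 in replicate 1. The last exon, which in MARS2 is the sole exon, held 66.7% and 77.8% of member summits, beside 50.3% and 59.2% over all genes. With a window of 100 nt the stop codon share was 37.5% in replicate 1 and 22.2% in replicate 2. With peaks of 5-fold or more it was 38.5% of 13 placed summits in replicate 1 and 14.3% of 7 in replicate 2. The shares of all genes were not taken in these settings.

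By class, the share near the stop codon was larger for cytosolic summits, on small counts that were not tested. In replicate 1, 8 of 12 placed cytosolic summits were in the stop codon window (66.7%) and 4 of 12 mitochondrial ones (33.3%). In replicate 2 it was 5 of 6 (83.3%) and 3 of 12 (25%). On the canonical transcript the cytosolic counts were the same, and the mitochondrial ones were 6 of 15 (40%) and 4 of 14 (28.6%). AARS1, CARS1, HARS1, SARS1 and YARS1 each had a shared summit there, at 16, -17, 61, 24 and 142 nt from the stop codon in replicate 1 (negative values are upstream). Of the mitochondrial genes, PARS2, FARS2 and MARS2 had their summit deep in the CDS, at -1046, -975 and -423 nt, and HARS2 and LARS2 had it in the 3′ UTR at 271 and 251 nt. AARS2 had 2 shared peaks in its last exon, with summits at 64 and 750 nt. EARS2 did likewise on the canonical transcript, at 133 and 856 nt.

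**Figure D4:**
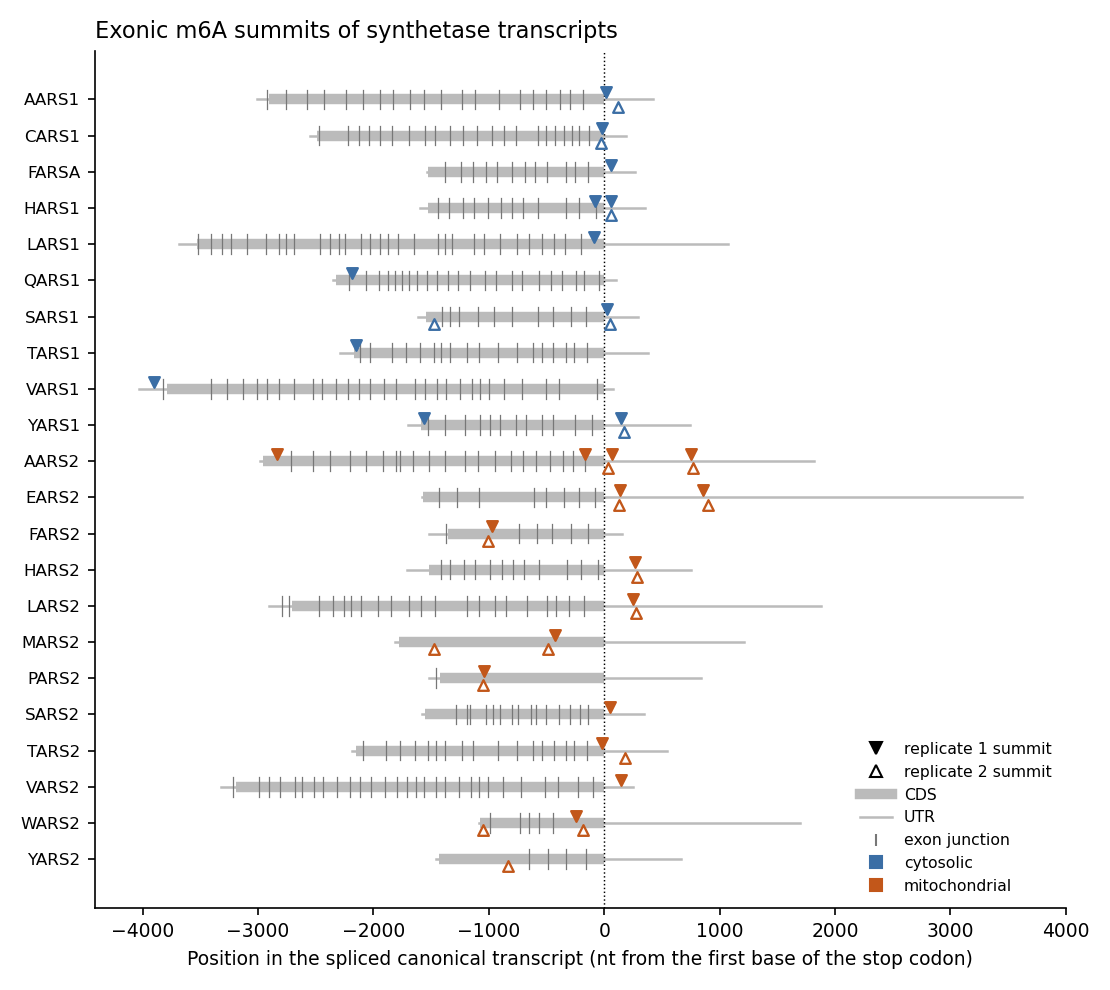
Exonic summits of synthetase genes on the spliced canonical transcript, by distance in nt to where the stop codon begins (x axis), with triangles pointing down for replicate 1 and up for replicate 2, thick bars for the CDS and thin lines for the UTRs. Cytosolic summits found in both lists cluster at the dotted stop codon line, those of PARS2, FARS2 and MARS2 lie in the CDS, and summits outside canonical exons, among them the strongest of SARS1 and all of CARS2, are not drawn.

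First exons were counted on transcripts of more than 1 exon, which leaves out MARS2. There, 0 of 14 placed shared summits of replicate 1 and 0 of 13 of replicate 2 lay in the first exon, beside 9.49% and 9.28% for the shared summits of all genes. Of the 9 placed unshared summits of replicate 1, 4 lay in the first exon (44.4%, all genes 22%), in AARS2, TARS1, VARS1 and YARS1. All 3 unshared summits of replicate 2 did (all genes 11.2%), in SARS1, WARS2 and YARS2. Exons over 400 nt held 12 and 13 of the 15 placed shared summits, MARS2 included (80.0% and 86.7%, all genes 88.2% and 89.6%) but 2 of the 9 unshared ones of replicate 1 (22.2%, all genes 53.7%). Shared summits also lay over 100 nt from the nearest exon junction in 13 of 14 cases in replicate 1 (92.9%) and in 13 of 13 in replicate 2 (100%), close to the 91.4% and 92.2% of all genes.

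Synthetase genes as a family have many short exons, with a median of 16.5 exons per canonical transcript against 8 for all protein-coding genes and a median longest exon of 621 nt against 1464 nt. The 7 genes of the multi-synthetase complex had a median of 24 exons and a median longest exon of 270 nt. The longest exon had a median of 816 nt in the mitochondrial and 490 nt in the cytosolic members. Of the 27 members with a canonical exon over 400 nt, 13 had a peak in both lists (48.1%, all genes 35.5%), and of the 9 without one, 2 had (22.2%, all genes 4.84%), CARS1 and CARS2. Among the members with such an exon, it was 4 of 13 cytosolic genes (30.8%) and 9 of 14 mitochondrial genes (64.3%). Among those without one, it was 1 of 5 cytosolic and 1 of 2 mitochondrial genes. A link between exon length and the difference between the classes was not tested. Exon lengths here are canonical while peaks were counted in any isoform, and the CARS2 peaks lay outside canonical exons. Some members with long exons had no peak. FARSB has a last exon of 5124 nt, the longest exon of the family, and NARS1, TARS3 and WARS1 have last exons of 1128, 1135 and 1247 nt, and none of the 4 had an exonic peak.

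**Figure D5:**
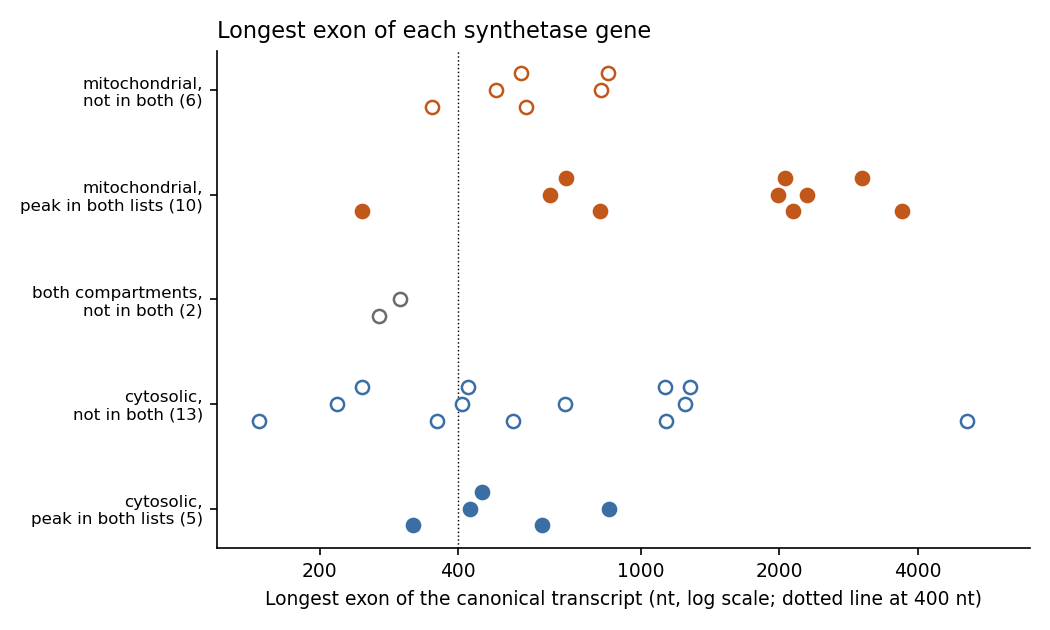
Longest exon of the canonical transcript (x axis, nt, log scale) of each member, by compartment and by whether an exonic peak was found in both lists (filled) or not (open); points are spread vertically for sight only. The 6 exons of 1981 nt or more in mitochondrial genes all belong to genes with a peak in both lists, while the cytosolic FARSB, at 5124 nt, has none.

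Several member peaks lay outside the canonical transcript. In replicate 1, 5 of 32 exonic summits (15.6%) and in replicate 2, 4 of 24 (16.7%) were in exons of other isoforms only, beside 8.83% and 7.70% for all protein-coding genes. The strongest SARS1 peak (14.9 and 13.2) lay in an exon of an isoform with no defined CDS, whereas the SARS1 peak at the stop codon had 4.22 and 4.2. Both shared CARS2 peaks lay in retained-intron isoforms, so with canonical exons alone CARS2 had no peak. The second shared HARS1 peak (4.18 and 3.67) lay in exons that overlap WDR55, and as the lists carry no strand its gene is uncertain. The gene is likewise uncertain for an unshared CARS2 summit in an exon of ING1 (5.49, replicate 1). It is also uncertain for the unshared WARS2 summit in an exon of WARS2-AS1 (3.47, replicate 2). A peak of 7.27 and 3.20 inside the MARS1 gene lay in an exon of DDIT3 and was not counted for MARS1.

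Of 12 partner genes in tRNA charging, which are not synthetases, 3 had an exonic peak in both lists (25%, background by length 34.9%). These were AIMP1, a scaffold protein of the multi-synthetase complex, with 7.07 and 5.67, GATC, a subunit of the mitochondrial amidotransferase that makes glutaminyl-tRNA, with 3.80 and 3.26, and SEPSECS, which makes selenocysteinyl-tRNA, with 10.8 and 3.74. The AIMP1 pair lay outside the canonical exons, in the 5′ UTR of another isoform whose first exon holds 3073 nt. DTD2 had a peak in replicate 1 only. A summit of 4.43 and 3.32 in the last exon of AIMP2, another scaffold protein, overlapped an exon of EIF2AK1 and was assigned to that gene.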

How the data were processed

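The analysis used the meRIP-seq peak list of each of the 2 IP samples of OE-19 cells, with groups and replicate numbers taken from the sample titles. According to the methods, total RNA was fragmented before the pull-down, while per the labels cells were UV-fixed and then lysed, and libraries were made with a directional kit. Mapping to hg38 was by TopHat2 per the methods, while the submitters' processing notes name fastp, HISAT2 and MACS2. Peaks were called per sample with MACS2 at default settings, and no source names the control that was used. Each deposited peak has a fold enrichment (a ratio over the caller's background), −log10 values of its p-value and q-value, a score and a summit offset. The deposited score was not used further, and the p-values served only to rank peaks for the alternative of equal peak numbers. The highest q was 0.0491 and 0.0497. Depth is not given, so precision rests on the numbers of peaks and genes.

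Summits were assigned to exons of any isoform in GENCODE 44, with protein-coding genes first where exons overlap, and among these the gene with the longest exonic length. An overlap of 1 bp or more made peaks shared, and they were paired when each was the other's largest overlap. Regions were taken on the longest-CDS transcript (stop codon window 200 nt) and on the canonical transcript. Positions are 1-based. Backgrounds of like length used 20 bins of protein-coding genes. All 36 members were named, with full positions for the 8 with the largest geometric mean fold enrichment in both lists. The members, classes and lists were chosen with earlier results of these data known, and class and complex membership is general knowledge.

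Alternatives were stricter q (0.01, 1e-05), 5-fold or more, equal peak numbers, peak midpoints, other overlap rules, gene definitions, windows and length backgrounds, and each replicate left out. The scripts were tested on simulated data. Python 3.11.15, numpy 2.4.6, scipy 1.17.1, pysam 0.24.0 and matplotlib 3.10.9 were used.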

Additional observations from a re-analysis of the deposited data

Results flagged for a closer look

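Peaks with the summit in an intron of a synthetase gene were outside the counts above and were present in both lists, 7 in replicate 1 and 6 in replicate 2, leaving out the peak inside MARS1 that lay in an exon of DDIT3 in each list. No control list was analysed here. In replicate 1 they lay in 5 genes with 2.78 to 7.74 fold enrichment, and 4 overlapped a peak of replicate 2. In replicate 2 they lay in 6 genes with 3.19 to 8.25 fold enrichment, and 5 overlapped a peak of replicate 1. FARSB, IARS1 and TARS3, which had no exonic peak, each had 1 intronic peak found in both lists, with 7.68 and 6.35 in FARSB, 5.58 and 5.12 in IARS1 and 6.03 and 6.0 in TARS3. CARS2 had one with 7.74 and 8.25. An intronic AARS2 peak of replicate 2 (3.19) overlapped a replicate 1 peak (2.72) with its summit in an exon, and LARS2 had one in replicate 2 alone (5.15). Intronic peaks were not counted over all genes, so whether these member counts are unusual is unknown. With summits anywhere in the gene body, 19 of 36 members had a peak in both lists, MARS1 through the DDIT3 exon. The share in that setting was 37.7% over all protein-coding genes and 44.1% for genes of like exonic length.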

How the results depend on the processing

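Of 178 values under alternatives, over 21 results, 161 stayed within the set limits, 17 moved and 0 reversed. More mitochondrial than cytosolic members had a peak in both lists in the 11 settings run on both lists, the reported one included, and the mitochondrial share was above its like-length background in all 11. The cytosolic share was below its own in 10 of 11. The exception was summits anywhere in the gene body, with 9 cytosolic members (50% against 45.7%). FARSB, IARS1, MARS1 and TARS3 were added, MARS1 through a peak in an exon of DDIT3. With 5-fold or more, 8 members and 1 cytosolic member remained, the background of like length was 22.5%, 42.1% of replicate 1 peaks were shared, the 5′ UTR of replicate 1 held 0%, exons over 400 nt held 76.9% and 100% of summits, and the stop codon window of replicate 2 held 14.3%. A stop codon window of 100 nt gave 22.2% in replicate 2, and one of 400 nt left 4.17% and 5.56% in the 3′ UTR. GGAC was found in 25% and 20.8% of windows of 25 nt and 78.1% and 75.0% of windows of 100 nt. With 1 replicate left out, the counts ranged from 16 to 22 for all members, 5 to 10 for cytosolic and 11 to 12 for mitochondrial ones, with 10 cytosolic members without replicate 2 (55.6% against 49%), and the background of like length from 38.9% to 47.2%. HARS2 was lost with summits in exons of 1 gene only. Counting genes by canonical exons, which loses CARS2, and the background by canonical length (33.4%) were chosen after the data were seen. No paired analysis was possible because the input samples have no peak list analysed here. The depth of the libraries is unknown, so what it limits cannot be given.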
